A study of Mus musculus with 12 samples.

Results

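The autosomal proteasome subunit genes were examined for initiation of transcription in mouse meiotic prophase I. They were chosen by symbol, as protein-coding genes of GENCODE release M21 named Psm, a letter from a to g, digits and at most 1 further letter, and 48 of the 20807 autosomal protein-coding genes met the rule. By role they comprised 7 standard alpha ring genes, 7 standard beta ring genes, 6 ATPases and 3 other genes of the base, 8 lid genes and 6 assembly chaperones, which make 37 standard genes. The other 11 were 5 special core subunits (Psma8, Psmb8, Psmb9, Psmb10 and Psmb11) and 6 alternative regulators (Psme1, Psme2, Psme2b, Psme3, Psme4 and Psmf1). Spermatocytes of adult wild-type (WT) male mice were enriched by STAPUT, a sedimentation of dissociated testis cells by size, so each fraction can hold other cells, which by the study's account of purity were mostly elongated spermatids. Nascent RNA was measured by leChRO-seq, a length-extension run-on of chromatin in which engaged RNA polymerases, RNA polymerase II among them, label their transcripts. The groups were leptonema/zygonema, in which chromosomes begin to pair, pachynema, in which they are fully synapsed, and diplonema, in which they separate, and each had 4 libraries (12 in all). The libraries of a substage were merged before dREG, a classifier of divergent initiation, called peaks, so each substage has 1 list, and neither a replicate spread nor a test stands behind a difference between substages.

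The proteasome degrades proteins that carry ubiquitin. Its barrel-shaped core has outer rings of alpha subunits, which gate entry, and inner rings of beta subunits, of which some cut peptide bonds. A regulatory particle with an ATPase base and a lid binds, unfolds and deubiquitinates substrates, and dedicated chaperones put rings and base together. Some core genes have copies that replace them in certain cells. PSMA8 takes the place of PSMA7 in the proteasome of male germ cells and is needed for meiosis, PSMB8, PSMB9 and PSMB10 replace PSMB5, PSMB6 and PSMB7 in the interferon-inducible immunoproteasome, and PSMB11 belongs to thymic epithelium. PSME1 to PSME4 are caps that open the core without ubiquitin, and PSME4 is abundant in testis.

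Nearly all of these genes had a promoter peak, defined as a dREG peak with its nearest edge under 1000 bp from an annotated transcription start site (TSS) of the gene. In leptonema/zygonema 45 of the 48 were called (93.8%), beside 60.7% of all autosomal protein-coding genes. The count was 43 in pachynema (89.6%), beside 61.2%, and 42 in diplonema (87.5%), beside 52.3%. The same 42 genes were called in every substage, where 50.2% of all genes were. Psmd8 was called in leptonema/zygonema and pachynema, Psmc5 and Psme1 were called in leptonema/zygonema alone, and Psmb10, Psmb11 and Psme2b had no promoter peak in any list, a state shared by 35.2% of all genes. In bulk fractions, fewer cells that use a promoter and less initiation per cell cannot be told apart. The lists also differ in length, with 71107, 68352 and 38603 peaks in the same order.

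The dREG score of a peak has no unit and is not scaled between lists, so each gene's highest promoter score was also ranked among the called autosomal protein-coding genes of the same list, as a percentile in which the highest gene is near 100. The median promoter score of the called proteasome genes was 1.09, 1.12 and 0.92 from the earliest substage to the latest, against 1.05, 1.03 and 0.839 for all called genes. Sets of 3 values follow this order, leptonema/zygonema, then pachynema, then diplonema, throughout. The median percentile of the proteasome genes was 55.9, 62.1 and 59.6, with quartiles of 34.6 and 77.1, 43.6 and 78.7, and 37.1 and 85.1. The leptonema/zygonema median was 51.3 with the TSS inside the peak and 49.5 with ranks among the genes called in every substage, so it was near the middle of that list, and the genes spread over most of the range. With those ranks the pachynema and diplonema medians were 54.3 and 58. The pachynema median was 57.5 with lists reduced to equal length, and the diplonema median was 51.4 with scores of at least 0.5. At the percentile 80 or above stood 8, 10 and 14 of them, beside 20.1%, 20% and 20.1% of all called genes, and at 20 or below 3, 3 and 5, beside 20% in each list.

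**Figure D1:**
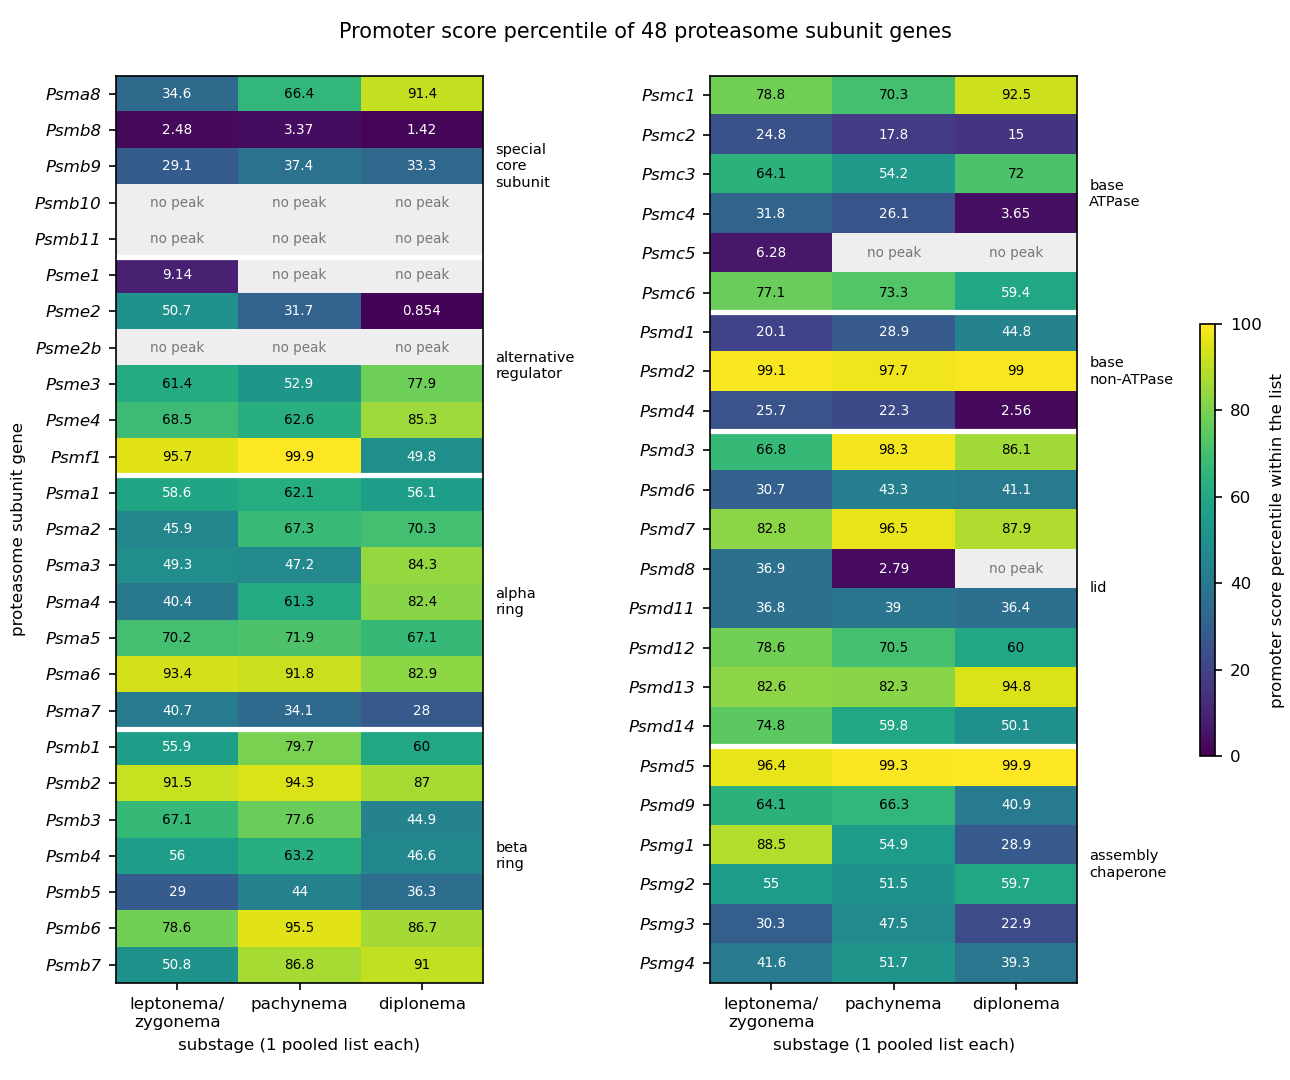
Promoter score percentile (colour and printed value, 0 to 100 within each list) of the 48 proteasome subunit genes (rows, by role) in the pooled list of each substage (columns); grey cells had no promoter peak. Psma8 went from 34.6 to 66.4 and 91.4, while Psmb8 stayed under 4 and Psmb10, Psmb11 and Psme2b had no peak.

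The peaks were ordinary in shape. The median width of the highest-scoring promoter peak was 580, 630 and 575 bp in the 3 substages, beside 580, 620 and 570 bp over all called genes. A gene had 2.58, 2.56 and 2.12 promoter peaks on average, beside 2.6, 2.63 and 2.18. At least 1 annotated TSS lay inside a peak for every called proteasome gene, as for 93.8%, 93.9% and 92.9% of all called genes. The TSS of the principal transcript lay inside a peak for 44, 43 and 39 genes, where this held for 51.2%, 51.6% and 43.3% of all genes.

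Short sequence motifs were then counted in the promoter window, from 250 bases before to 50 after the principal TSS, on both strands, with N for any base. CCGGAAG, the letters of an ETS factor site, was in 17 of the 48 windows (35.4%), beside 11.5% of all autosomal protein-coding promoters of the same length and 18.6% of those called in every substage. GGCNGTT, the letters of a MYB site, was in 11 (22.9%), beside 12.3% and 14.1%. In a window from 500 bases before to 100 after the TSS the ETS letters were in 41.7%, beside 14.6% and 23.3%, whereas the MYB letters were in 25%, beside 21.4% and 23.9%, so the MYB difference was smaller in the longer window. The upstream 250 bases of 3 standard genes with an ETS match and of the lid gene Psmd3 with a MYB match are printed because both motifs were held by a larger share of proteasome windows than of called promoters at the shorter length, with the match in capitals. The same stretch of Psmb7 and Psmb10 is printed because a standard gene called in every substage and its immunoproteasome copy, never called, both had few CpG dinucleotides, in capitals there. All are read 5′ to 3′ on the strand of the gene from the RefSeq sequence of GRCm38.p6 (mm10). They are Psmd2 (chr16:20651402-20651651, plus strand), Psmc6 (chr14:45329538-45329787, plus strand), Psmg1 (chr16:95990961-95991210, minus strand), Psmd3 (chr11:98682304-98682553, plus strand), Psmb7 (chr2:38644088-38644337, minus strand) and Psmb10 (chr8:105938445-105938694, minus strand).
Psmd2: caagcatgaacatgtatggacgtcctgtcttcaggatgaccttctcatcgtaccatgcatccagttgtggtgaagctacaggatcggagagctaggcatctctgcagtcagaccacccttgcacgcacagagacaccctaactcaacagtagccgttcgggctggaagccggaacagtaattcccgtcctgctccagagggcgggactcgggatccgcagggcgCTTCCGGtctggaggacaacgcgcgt
Psmc6: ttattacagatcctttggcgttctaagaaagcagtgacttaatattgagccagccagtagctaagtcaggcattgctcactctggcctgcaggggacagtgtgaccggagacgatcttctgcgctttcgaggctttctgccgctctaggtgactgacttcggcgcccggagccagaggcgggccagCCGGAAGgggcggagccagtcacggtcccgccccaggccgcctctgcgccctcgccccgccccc
Psmg1: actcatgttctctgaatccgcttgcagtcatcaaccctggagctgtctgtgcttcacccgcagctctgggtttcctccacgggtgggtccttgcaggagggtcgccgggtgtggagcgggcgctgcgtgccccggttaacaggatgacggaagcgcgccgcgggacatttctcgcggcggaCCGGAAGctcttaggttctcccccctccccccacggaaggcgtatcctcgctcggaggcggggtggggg
Psmd3: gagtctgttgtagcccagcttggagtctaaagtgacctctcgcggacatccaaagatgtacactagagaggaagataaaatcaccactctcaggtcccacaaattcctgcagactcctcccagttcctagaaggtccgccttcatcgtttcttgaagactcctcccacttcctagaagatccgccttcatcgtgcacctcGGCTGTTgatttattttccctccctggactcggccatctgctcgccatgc
Psmb7: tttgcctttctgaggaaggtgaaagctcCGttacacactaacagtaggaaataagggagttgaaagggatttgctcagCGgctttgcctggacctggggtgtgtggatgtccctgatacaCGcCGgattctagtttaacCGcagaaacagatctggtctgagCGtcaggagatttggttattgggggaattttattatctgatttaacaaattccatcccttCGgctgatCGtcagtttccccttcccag
Psmb10: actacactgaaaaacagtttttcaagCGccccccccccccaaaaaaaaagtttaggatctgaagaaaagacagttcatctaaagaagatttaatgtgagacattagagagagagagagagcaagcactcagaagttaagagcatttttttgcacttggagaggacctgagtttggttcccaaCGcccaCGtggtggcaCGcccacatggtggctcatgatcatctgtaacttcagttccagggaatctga

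In Psmd2, the base scaffold with the highest leptonema/zygonema score of all 48, the ETS match began 26 bases before the TSS. It began 64 bases before in the ATPase gene Psmc6 and 69 bases before in the chaperone gene Psmg1. The MYB match began 50 bases before the TSS in Psmd3. Psmb7 had 8 CpG and Psmb10 had 4 in the whole window, against a median of 18.5 for the 48 genes, 13 for all promoters and 21 for promoters called in every substage.

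The general promoter motifs were about as frequent as in other called promoters. GGGCGG, the letters of SP and KLF sites, was in 29 windows (60.4%), beside 46.2% of all promoters and 63.1% of those called in every substage. CCAAT, bound by NFY, was in 16 (33.3%), beside 38.2% and 39.3%. GCGCANGCG of NRF1 was in 7 (14.6%), beside 8.5% and 14.5%. The letters of inducible factors were each in at most 7 windows. TGACNNNGC, a core of the antioxidant response element through which NFE2L1 controls proteasome genes, was also in 7 (14.6%), beside 12.6% and 14.3%, and all 7 were standard genes. In the longer window it was in 17 (35.4%), beside 21.8% and 23.7%. TGACGTCA of CREB was in 2 (4.17%), beside 2.49% and 3.85%. Few windows had a TATA box. TATAAA was in 5 (10.4%), beside 12.6% and 6.81%. GAAANNGAA of IRF was in 7 (14.6%), beside 8.49% and 7.19%, and TTCNNNGAA of STAT was in 5 (10.4%), beside 7.89% and 7.01%. The 7 windows with the IRF letters all belonged to the 37 standard genes, so at this length none of the immunoproteasome or regulator windows held them. The STAT letters were in the window of Psmb8, beginning 64 bases before the TSS, and otherwise in those of standard genes. Matches of different motifs shared bases in 4 windows, those of Psmd9 (the antioxidant core and GGGCGG), Psmb2 (CCAAT and CREB) and Psma8 and Psme4 (ETS and GGGCGG). A match is a run of letters, not a shown binding site.

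**Figure D2:**
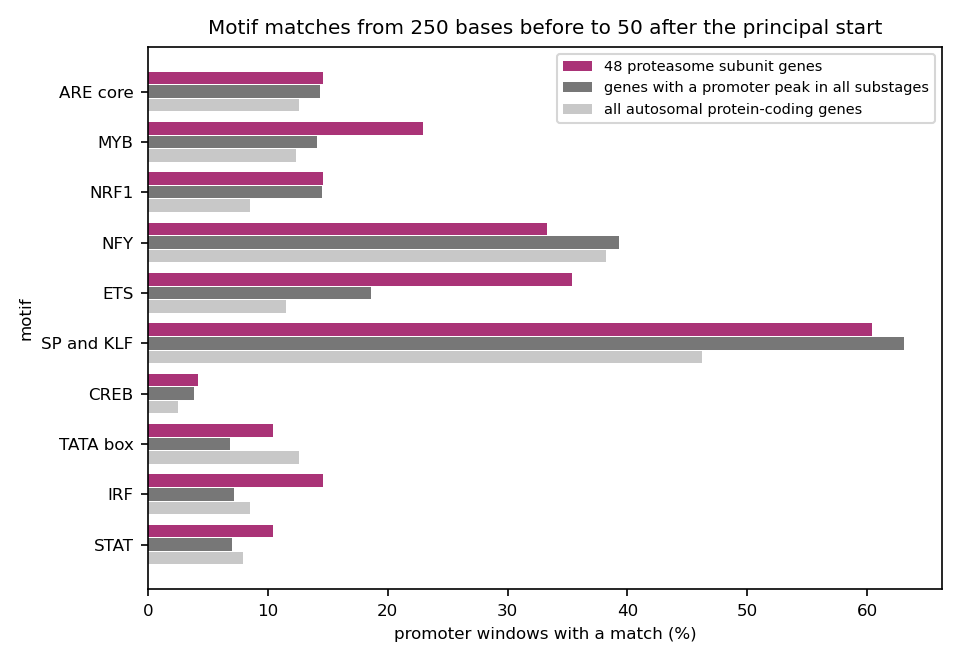
Share of promoter windows with at least 1 match (horizontal axis, %) for each motif (vertical axis) in the 48 proteasome subunit genes, in the genes with a promoter peak in every substage and in all autosomal protein-coding genes. The ETS bar of the proteasome genes, at 35.4%, stands beside 18.6% and 11.5%.

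Psma8, the germ cell alpha subunit at chr18:14706151-14762301 on the plus strand, moved further up the lists than any other gene of the set. Its promoter score was 0.903 in the earliest list, 1.14 in pachynema and 1.17 in diplonema. Within each list this was a percentile of 34.6, then 66.4, then 91.4, and Psma8 was 34th of the 45 called proteasome genes, 18th of 43 and 5th of 42. The percentile was thus higher by 31.8 points at the first step and by 24.9 at the second, and from leptonema/zygonema to diplonema it was 56.8 points higher. In the lists as deposited, Psma4 and Psma8 alone among the 42 genes called throughout were at least 20 points higher at both steps. This rule was met by 1.05% of all genes called throughout. At the second step alone 7.8% of all genes were that much higher as deposited, and 14.5% with lists reduced to equal length. The promoter peak covered the TSS in every list and was 600, 900 and 660 bp wide. Among all peaks of the list, distal ones included, it stood at the percentile 74.9, 91 and 97.2.

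The gene it replaces, Psma7, did not move up with it. Its score was 0.972, 0.865 and 0.624, and its percentile 40.7, 34.1 and 28. The second of these shifts, -6.1 points, became 2.92 with lists reduced to equal length and 3.96 with ranks among the genes called in every substage, but -16.4 with a limit of 500 bp, -17.3 with the TSS inside the peak, -17 with the nearest peak and -13.3 with scores of at least 0.5. The percentile of Psma8 minus that of Psma7 was -6.1, 32.3 and 63.4 points, so the order of this pair within the list was reversed. Psma7 faces Ss18l1 head to head, with start sites 76 bp apart. In diplonema its highest peak lay 518 bp outside the TSS, on the Ss18l1 side, and the peak over the TSS scored 0.505.

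Psma8 also carried peaks inside the gene, all intronic. In leptonema/zygonema a peak beginning 3760 bp into the gene (chr18:14709911-14710690) scored 1.14, and the promoter score minus this was -0.235. In pachynema the peak in this place began at 3530 bp and scored 0.838, and the same difference was 0.302. In diplonema there were 3 shorter peaks there, of which the highest scored 0.553, with a difference of 0.617. The order of promoter and intronic peak within the list was therefore reversed after leptonema/zygonema. As a percentile of all peaks of its list, the highest of these intronic peaks was at 88, 73.2 and 52.6. A further intronic site about 26 kb into the gene began at 26110 bp in leptonema/zygonema, with a score of 0.78, and was covered by pairs of shorter peaks later (0.58 and 0.647 in pachynema, 0.439 and 0.452 in diplonema). In the window around the TSS, the MYB letters GGCNGTT began 24 bases before the TSS, and the ETS letters CCGGAAG 32 bases before and 12 after it.

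**Figure D3:**
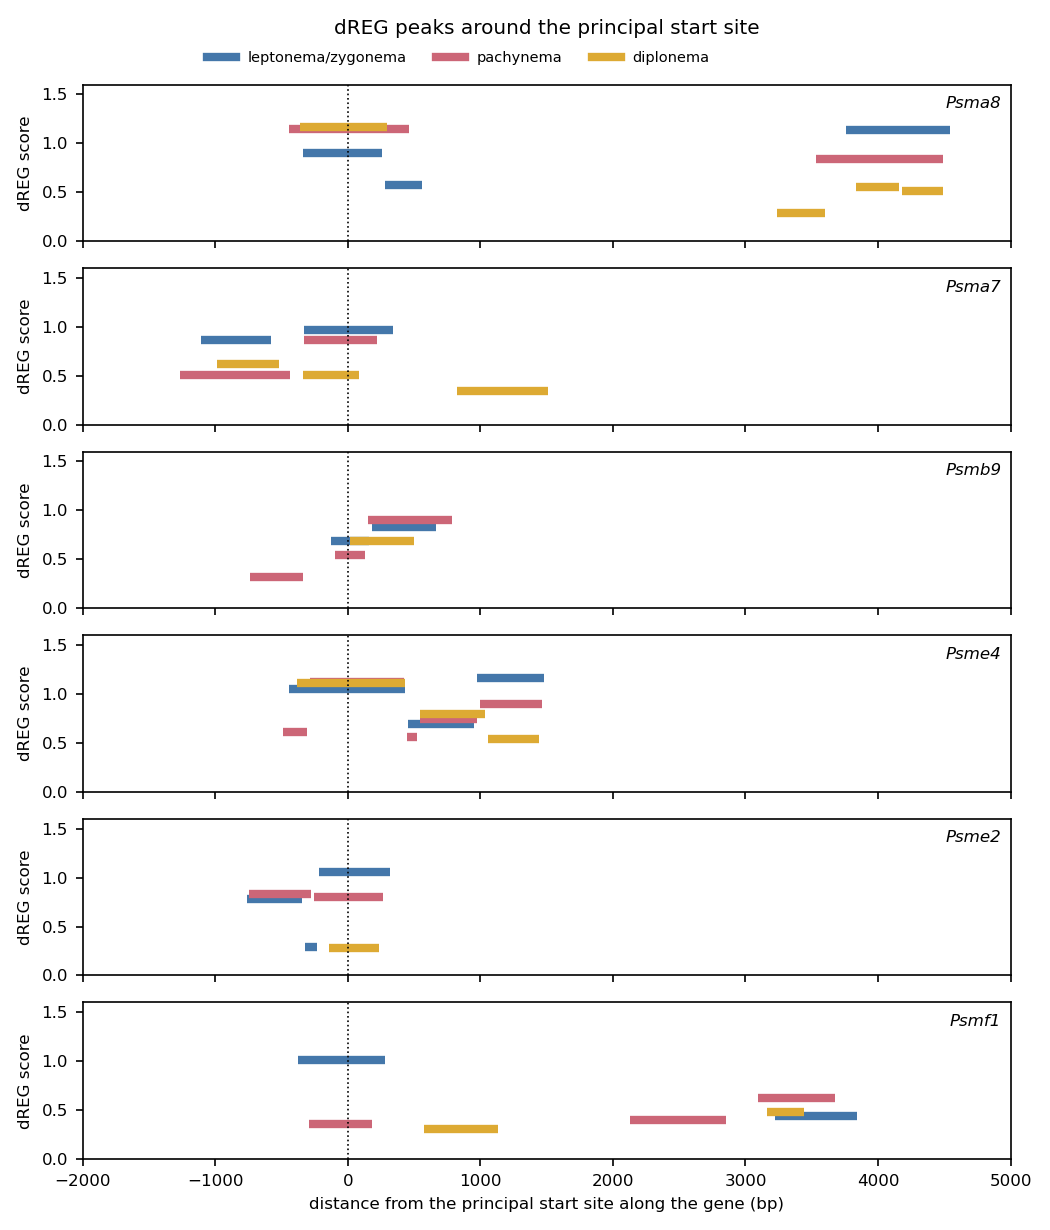
dREG peaks of 6 named genes, drawn from edge to edge against the distance from the principal TSS (horizontal axis, bp, positive into the gene; dotted line at 0) and at the height of their score (vertical axis), coloured by substage. In Psma8 the intronic peak scores above the promoter peak in leptonema/zygonema and below it in pachynema and diplonema.

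Of the immunoproteasome genes, Psmb8 was near the foot of each list, Psmb9 was below the middle and Psmb10 was not called. Psmb8, which replaces Psmb5, had single narrow peaks with scores of 0.342, 0.353 and 0.294, at the percentiles 2.48, 3.37 and 1.42. It was in no list at a score of at least 0.5 and in 1 with lists reduced to equal length. Psmb5 stood at 29, 44 and 36.3. The Psmb8 peak covered the principal TSS in pachynema but lay 391 and 431 bp away from it, over internal start sites, in leptonema/zygonema and diplonema. Psmb9, which replaces Psmb6, had scores of 0.831, 0.906 and 0.683, at the percentiles 29.1, 37.4 and 33.3. Psmb6 was far higher in each list, at 78.6, 95.5 and 86.7. The standard gene Psma7 was above Psmb9 in leptonema/zygonema, at 40.7, but below it in pachynema and diplonema, at 34.1 and 28. A TSS of Psmb9 lies 30 bp from a TSS of Tap1, a peptide transporter of antigen presentation on the other strand. Both genes had the same highest peak in all 3 lists, so the score cannot be assigned to either alone.

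Psmb10, which replaces Psmb7, had no peak near a start site. The nearest lay 26627, 26327 and 26427 bp away, at Slc12a4, whereas Psmb7 stood at the percentiles 50.8, 86.8 and 91. The thymic gene Psmb11 also had none. Its nearest peak, 3113, 3013 and 3153 bp away, was the one over the TSS of its neighbour Psmb5. Of the 5 special core genes, Psma8 was thus the only one whose percentile was above that of the gene it replaces in any list.

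The alternative regulators differed among themselves. Psme1 and Psme2 encode the partner subunits of the interferon-inducible cap, and their principal start sites are 12727 bp apart. Psme1 was called only in leptonema/zygonema, with a score of 0.484 (percentile 9.14), so the call ends at a score of at least 0.5. The nearest peak later was that of Psme2, 10073 and 10103 bp away. Psme2 scored 1.06, 0.836 and 0.285, at the percentiles 50.7, 31.7 and 0.854, so it was the lowest called proteasome gene of the diplonema list. That diplonema call ends at a score of at least 0.5. In pachynema the highest Psme2 peak lay 248 bp from the nearest TSS, and the peak over the TSS scored 0.8. A start site of Rnf31 on the other strand lies 595 bp from one of Psme2. Psme2b, a second gene of the Psme2 kind, had no peak nearby in any list. Its nearest was 73540, 47941 and 47951 bp away.

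Psme3, the nuclear cap, scored 1.13, 1.06 and 1.05, at 61.4, 52.9 and 77.9. Its highest leptonema/zygonema peak covers an internal TSS. At the principal TSS of Psme3 the percentiles were 55.4, 53.5 and 77.7 among principal start sites. Psme4, the cap linked to histone degradation in sperm development, scored 1.17, 1.12 and 1.11, at 68.5, 62.6 and 85.3. Both were lower by less than 10 points in pachynema and higher by 25 and 22.7 points in diplonema than in the substage before. In leptonema/zygonema the highest Psme4 peak lay 380 bp from the nearest TSS, and the peak over the TSS scored 1.05. Psmf1, an inhibitor of the core, scored 1.35, 1.45 and 0.836, at 95.7, 99.9 and 49.8. That peak covers an internal TSS. At the principal TSS of Psmf1 the score was 1.01, 0.354 and 0.304, at 46.1, 3.71 and 1.9 among principal start sites, in diplonema from a peak 576 bp away, so the rank of this gene depends on which TSS is read.

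**Figure D4:**
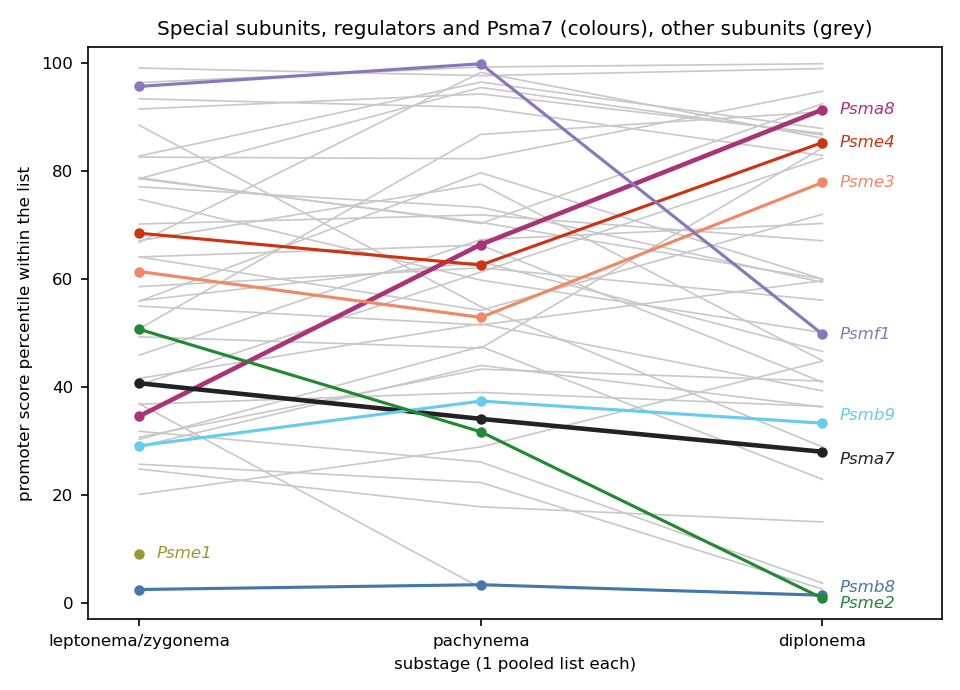
Promoter score percentile within the list (vertical axis, 0 to 100) by substage (horizontal axis) for the called special core subunits, the called alternative regulators and Psma7 (coloured, named) and for the other standard genes (grey); each point is 1 pooled list. Psma8 crosses Psma7 between leptonema/zygonema and pachynema.

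Among the standard core genes, all 14 ring genes were called in every substage. The median percentile of the alpha ring was 49.3, 62.1 and 70.3, and that of the beta ring 56, 79.7 and 60. Psma6 was the highest alpha gene in leptonema/zygonema and pachynema (93.4 and 91.8). Psma4 scored 0.969, 1.11 and 1.09 and stood at 40.4, 61.3 and 82.4, higher by 20.9 and 21.1 points at the steps. Its percentile, though not its score, was higher at each step. Psma3 scored 1.05, 1.01 and 1.1, and its percentile was 49.3, 47.2 and 84.3, with 37.1 points gained at the second step, the most of the proteasome genes. Psma2 stood at 45.9, 67.3 and 70.3.

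Psmb7, a catalytic beta subunit, scored 1.06, 1.25 and 1.17. Its percentile of 50.8, 86.8 and 91 included the largest gain of the proteasome genes at the first step, 36 points. Psmb1 stood at 55.9, 79.7 and 60, but its highest peak lay over a start site beyond the principal one, on the side of Tbp, and at the principal TSS the percentiles were 49.9, 55.4 and 40.5. Psmb3 scored 1.16, 1.2 and 0.795, at 67.1, 77.6 and 44.9, with a shift of -32.7 points from pachynema to diplonema. Psmb2 stayed high throughout (91.5, 94.3 and 87).

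The base genes spread widely. Psmd2, its ubiquitin-binding scaffold, scored 1.41, 1.35 and 1.29 and stood at 99.1, 97.7 and 99. Psmd4, a ubiquitin receptor, scored 0.782, 0.692 and 0.312, at 25.7, 22.3 and 2.56, the lowest standard gene called in diplonema. Psmd1, a second scaffold, scored 0.688, 0.798 and 0.794, at 20.1, 28.9 and 44.8. Only Psmd2 of these 3 was above the middle of a list. The 6 ATPase genes had a median percentile of 48, 54.2 and 59.4 over those called. Psmc5 was called only in leptonema/zygonema, with a score of 0.419 (percentile 6.28), the lowest of the standard genes there, so that call ends at a score of at least 0.5. Its start site lies 75 bp from that of Ftsj3. Later its nearest peak was 15757 and 16247 bp away. Psmc1 scored 1.22, 1.16 and 1.18, at 78.8, 70.3 and 92.5, so that 22.2 points separated diplonema from pachynema. Psmc4 scored 0.869, 0.754 and 0.328, at 31.8, 26.1 and 3.65, and so ended near the foot of the diplonema list.

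The lid genes had a median percentile of 70.8, 65.1 and 60. Psmd3 scored 1.16, 1.36 and 1.12, at 66.8, 98.3 and 86.1, with 31.5 points gained at the first step. Psmd7 stood at 82.8, 96.5 and 87.9. Psmd8 scored 0.929 and then 0.342, at 36.9 and 2.79, the lowest percentile of any proteasome gene in pachynema, with a shift of -34.1 points. Its pachynema call ends at a score of at least 0.5. In diplonema Psmd8 was not called, and its nearest peak was 5209 bp away. The remaining lid genes were called throughout. Psmd14, the deubiquitinase of the lid, stood at 74.8, 59.8 and 50.1. Psmd13 stood at 82.6, 82.3 and 94.8.

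The assembly chaperones were all called in every substage, with a median percentile of 59.5, 53.3 and 40.1. Psmd5, which holds ATPases of the base before they join, scored 1.35, 1.4 and 1.36, at 96.4, 99.3 and 99.9, and was the highest proteasome gene in diplonema. Psmg1, which helps build the alpha ring, scored 1.28, 1.07 and 0.633, at 88.5, 54.9 and 28.9. In the lists as deposited its shifts were -33.6 and -26 points. There it was the only gene of the set at least 20 points lower at both steps, a rule met by 2.76% of all genes called throughout. The 7 genes lower at the second step became 4 with lists reduced to equal length and 3 with ranks among the genes called in every substage. Psmd9 stood at 64.1, 66.3 and 40.9, and Psmg3 at 30.3, 47.5 and 22.9.

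Over the whole set, most genes kept within 20 percentile points at each step. From leptonema/zygonema to pachynema, 6 of 43 were higher by at least 20 points (Psma2, Psma4, Psma8, Psmb1, Psmb7 and Psmd3), where 11.1% of all genes were, and 2 were lower (Psmd8 and Psmg1), where 10.8% were. The median shift was 2.19 points, beside 0.498 for all genes. From pachynema to diplonema, 6 of 42 were higher (Psma3, Psma4, Psma8, Psmc1, Psme3 and Psme4), where 7.8% of all genes were. The 7 that were lower at that step were Psmb3, Psmc4, Psmd9, Psme2, Psmf1, Psmg1 and Psmg3, where 21.7% of all genes were. With lists reduced to equal length the counts at this step were 8 higher and 4 lower, where 14.5% and 16.2% of all genes were, and with ranks among the genes called in every substage 8 and 3, where 15.5% and 15.2% were. The median shift was -6.04 points, beside -4.31 for all genes. These counts are small, and with 1 list per substage none of the shifts has a replicate check.

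A promoter peak can belong to a neighbour. For 15 of the 48 genes a start site on the other strand lay under 1000 bp away, beside 23.4% of all genes, and at Psmb9, Psmc2, Psma5, Psmc5, Psma2, Psma7 and Psmc3 it lay within 76 bp. Psma8 had no such neighbour. Distal peaks inside the gene, at least 1000 bp from every annotated TSS, were found in 4, 5 and 2 genes of the successive lists, beside 26.5%, 24.6% and 13.6% of all genes. The proteasome genes were shorter, with a median length of 12062 bp against 17629 bp. Psma8 and Psmc2 had distal peaks in every list, Psme4 in the earlier 2, about 13 kb into the gene (0.717 and 0.481, then 0.666 and 0.405), and Psma2, Psmd5 and Psmd12 in 1 list each.

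Genes that work with the proteasome but bear other names were called about as often. Of 20 annotated cofactors and regulators, 19, 18 and 17 had a promoter peak, with a median percentile of 71.7, 80.5 and 73.7. Pomp, the maturation factor of the core, scored 1.36, 1.34 and 1.17, at 97, 97.4 and 91.5. Nfe2l1, the transcription factor that raises proteasome genes when the proteasome is inhibited, scored 1.09, 1.13 and 0.727. Adrm1, a ubiquitin receptor, scored 0.966 and 0.772 and was not called in diplonema. Ddi1 was not called in any list. Of 7 antigen presentation genes 5, 6 and 5 were called, led by B2m (1.19, 1.05 and 1.01).

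Marker genes were read in the same lists. All 8 spermatocyte markers were called in each substage, with a median percentile of 65.2, 78.8 and 81.7 and the highest score at Hormad1 (1.29, 1.32 and 1.33). Their summed scores were 9.36, 9.2 and 8.12. The percentiles of Hormad1, Sycp1, Sycp2 and Sycp3 were higher at each step. Other markers ended lower than they began, Dmc1 at 58, 26.9 and 18.1 and Brdt at 86.5, 82.1 and 67.7. So did Mybl1 (61.8, 69.3 and 37.9) and Spo11 (58.6, 52.4 and 53.8). Of 6 spermatid markers 5 were called in each list, all but Tnp2, with summed scores of 4.97, 4.63 and 4.64, in which the peak shared by Prm1 and Prm2 enters for each gene, and a median percentile of 41.6, 42 and 66.5. With that peak counted once the median was 67.2, 63.9 and 70.2. Tnp1 stood at 41.6, 42 and 73.8, and Acrv1 at 92.9, 92.9 and 66.5. Of 6 spermatogonium markers 5, 5 and 4 were called, with summed scores of 4.74, 4.66 and 2.67, and Gfra1 was never called. Of 6 Sertoli cell markers 2, 4 and 3 were called, with summed scores of 1.31, 2.7 and 1.36, led by Gata4 (0.925 and 0.946) and in diplonema by Sox9 (0.564), while Amh and Rhox5 had no peak. A single Leydig cell marker, Cyp11a1, was called in pachynema (0.414), and none elsewhere. Of 8 immune cell markers Lyz2 was called in leptonema/zygonema (0.38) and Cd3e in pachynema (0.324), and Ptprc, Cd74, Csf1r, Adgre1 and Itgam were among those never called. These sums are not on a scale that can be compared between lists. The median percentile of the called spermatogonium markers was 46.9, 46.5 and 19.2, although Id4 among them stood at 46.9, 69.5 and 99.2. The part of spermatids, named by the study as the main other cells, or of spermatogonia in the places of the proteasome genes, Psma8 included, was not tested.

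**Figure D5:**
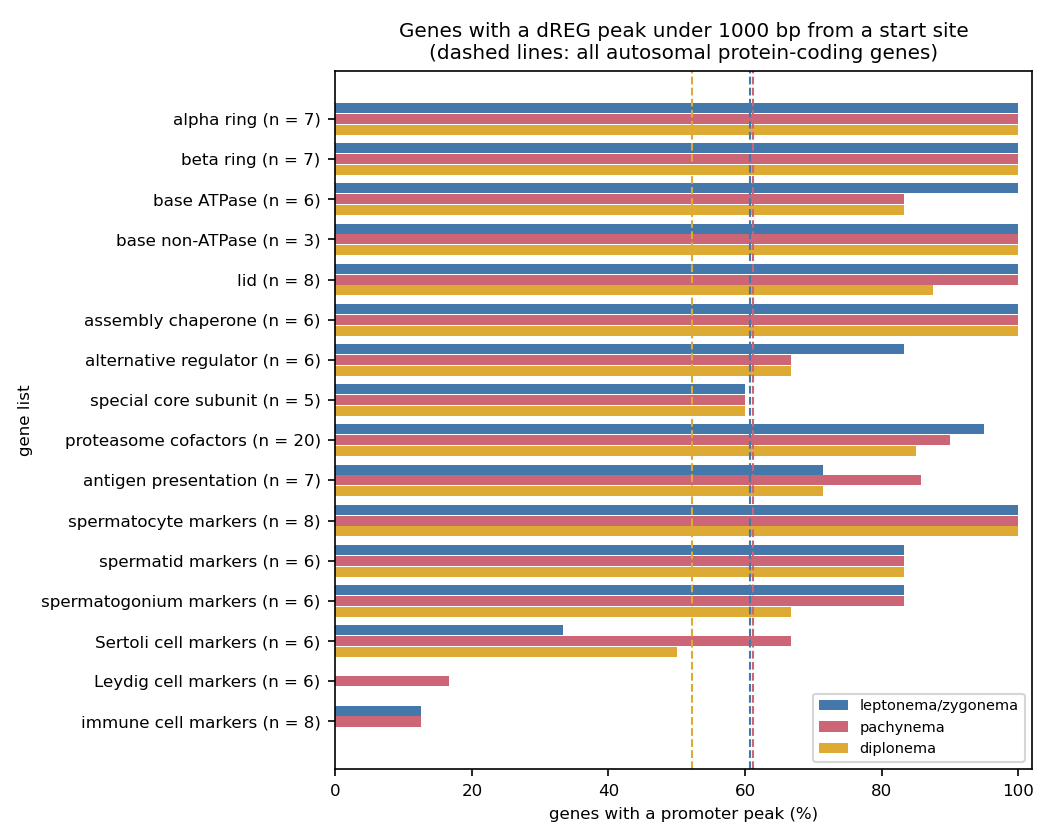
Share of genes with a promoter peak (horizontal axis, %, from 0) for each proteasome role and each comparison list (vertical axis, number of genes in brackets), by substage; dashed lines mark all autosomal protein-coding genes at 60.7%, 61.2% and 52.3%. The special core subunits, at 3 of 5 in every substage, are the lowest proteasome group. Psmb8 is among these 3, and its calls end at a score of at least 0.5. Leydig and immune cell markers are nearly absent.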

How the data were processed

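Per the labels and the study's methods, the authors isolated WT prophase I spermatocytes by STAPUT, made 4 leChRO-seq libraries per substage, trimmed reads with cutadapt, mapped them with BWA to mm10 and called peaks with dREG at default settings on the merged libraries. They deposited, for every peak, a dREG score, which has no unit, and a p-value, all at most 0.05. Their lists hold no read counts, and the depth of the libraries was not used here. Here, peak edges were compared with every GENCODE M21 transcript start, under 1000 bp counting as promoter, and scores were ranked within a list. A move was 20 percentile points. Genes named in full were the special and regulator genes, those not called somewhere, the highest and lowest standard genes of a list and the 3 largest shifts each way at each step. Further genes were named after their values were seen. Members and lists were chosen with earlier results of these data known. Calls and the motif scan were tested on simulated data. Alternatives changed the score, p-value, distance, TSS set, list length, peak choice, shift and window. Python 3.11.15, numpy 2.4.6, pandas 2.3.3 and matplotlib 3.10.9 were used. Motifs used a principal (APPRIS) transcript per gene.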

Additional observations from a re-analysis of the deposited data

How the results depend on the processing

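Alternatives gave 246 values, of which 14 moved and 2 reversed. In the other 230, counts stayed within 1.5 times, shifts kept their sign and their side of 20 points, and medians stayed within the 95% binomial interval set for them. With 10 points in place of 20 as a move, 13 genes were higher and 4 lower from leptonema/zygonema to pachynema (6 and 2 at 20 points), beside 25.6% and 24% of all genes, and 14 were lower from pachynema to diplonema, beside 38.1%. The last count, 7 as reported, was 4 with lists reduced to equal length (16.2% of all genes) and 3 with ranks among the genes called in every substage (15.2%). Those ranks were an alternative chosen after seeing the data, as was the use of 1 principal TSS per gene. The Psma7 shift from pachynema to diplonema, -6.1 points, became 2.92 with lists of equal length and 3.96 with ranks among genes called in every substage, and ran down to -17.3 under the others. The same 2 settings gave Psma8 shifts of 29.5 and 31.8 points at that step, and over all settings the Psma8 shift ran from 29.4 to 36.3 at the first step and from 23.6 to 31.8 at the second. Psme1 was in no list, and Psmb8 in none and in 1, with scores of at least 0.5 and with lists of equal length. With scores of at least 0.5, the successive lists called 42, 41 and 37 proteasome genes, and 37 were called in every list (42 as reported). The calls that also ended were those of Psmc5 in leptonema/zygonema, Psmd8 in pachynema and Psmc2, Psmc4, Psmd4 and Psme2 in diplonema. A window from 500 bases before to 100 after the TSS gave 17 genes with the antioxidant response element core (35.4%, beside 21.8% of all promoters and 23.7% of those called in every substage), 26 with CCAAT (54.2%, beside 57% and 56%), 8 with TATAAA (16.7%, beside 25% and 17%), 13 with the IRF letters (27.1%, beside 16.8% and 15%) and 11 with the STAT letters (22.9%, beside 16% and 14.4%). The comparison of proteins between paralogs was not run. No paired analysis was possible because the deposited columns hold pooled libraries and carry no replicate number, and leaving out a replicate could not be tried either. Scores depend on read depth, which was not compared between substages here.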

Other observations

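Psmd10, a chaperone of the base on the X chromosome, lies outside the autosomal set. It had 4, 4 and 1 promoter peaks from the earliest substage to the latest, with highest scores of 0.989, 0.945 and 0.981. In each list the highest-scoring peak covered a start site, and the gene was not ranked among the autosomal genes.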
